A study of Mus musculus with 6 samples.

Results

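Tspan8, Cd9, Cd63, Cd82, Cd151, Tspan1, Tspan6, Tspan13 and Tspan15 are tetraspanins that epithelial cells carry, and their transcripts were compared between Lgr5-positive and Lgr5-negative mouse mammary cells. The 9 genes were taken by name: each non-control probe whose RefSeq transcript belongs to one of them was read, which gave 12 probes. All 12 passed the filter on dim probes, so the 9 genes are 9 of the 15680 genes tested. The set was chosen by the measured difference between Lgr5-positive and Lgr5-negative arrays, since Tspan8 has the highest positive difference of all genes tested and the others were placed beside it with these results known. For these 9 genes the comparison is therefore given as a description, with no p-value. Where the text counts how many of them passed a threshold, nothing is read from the count.

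Glands were taken from virgin C57/B6 mice with lgr5-egfp-ires-creert2, an allele that places EGFP and a drug-inducible Cre recombinase in the Lgr5 locus. Both groups carry this allele and both were sorted as Lin-CD24+CD29hi, the gate named P4, which is enriched in basal cells. Lgr5-positive cells are the EGFP-positive part of that gate and Lgr5-negative cells the EGFP-negative part. There were 3 arrays per group, each with the sorted sample in Cy5 and, in Cy3, a commercial reference RNA pooled from 11 mouse cell lines. The age of the mice, the number of mice behind an array and the markers behind Lin are not given in the sources used here, so the spread between arrays may be partly technical. EGFP reports activity of the Lgr5 locus and is not itself a cell type. In such sorted bulk samples, fewer cells of one type and less RNA per cell cannot be told apart.

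Tetraspanins are small membrane proteins that cross the membrane several times and hold a large extracellular loop with conserved cysteines. They bind each other and other proteins side by side, among them integrins, immunoglobulin-superfamily proteins and membrane proteases, and so organise patches of the cell surface. Cd9, Cd63 and Cd81 are also widely used as markers of extracellular vesicles, and Cd151 binds laminin-binding integrins, which anchor basal mammary cells to the basement membrane.

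Median Cy5 signal over probes was 137 to 169 on the Lgr5-positive arrays and 200 to 278 on the Lgr5-negative arrays. Median background in that channel was 64 to 76, and 0 spots were saturated. Every value below is a log2 ratio of Cy5 to Cy3 after normalization unless called an intensity, and a difference is Lgr5-positive minus Lgr5-negative. The labels were checked on Lgr5, whose single probe read 4.24, 5.36 and 5.01 in replicates 1 to 3 of the positive cells and 2.84, 4.04 and 3.31 in those of the negative cells. The positive array was the higher one in each same-numbered pair, by 1.40, 1.31 and 1.70. The gap was 2.77-fold, and negative cells still averaged 3.40. The Cy3 intensity of the Lgr5 probe was only 100 to 206, so its ratio rests on a dim denominator. With the brightest probe standing for each gene and a threshold of adjusted p under 0.05 in limma, 0.612% of all genes tested passed with the group as the only term, and 7.72% passed when the replicate number was added as a block. Same-numbered arrays deviated together from their group means, so the blocked result is given beside the other one where they differ. In limma over all probes kept, the Lgr5 probe had an adjusted p of 0.429 with the group alone and 0.0013 with the block.

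Among the 9 tetraspanins, Tspan8 stood 11.0-fold higher in Lgr5-positive cells, Tspan13, Cd82 and Tspan1 stood 3.84-, 3.04- and 2.88-fold lower, and the other 5 differed by less than 1.5-fold. With the group alone 1 of 9 was past the threshold, Tspan8, against 0.612% of all genes (0.0255% higher and 0.587% lower). No gene was past it as higher, Tspan8 included, without Lgr5-positive replicate 1 or 3, without Lgr5-negative replicate 2, without pair 2 or 3, or with median centring in place of loess. With the block 5 of 9 were past it, 2 higher (Tspan8 and Cd151) and 3 lower (Cd82, Tspan1 and Tspan13), against 7.72% of all genes (2.1% higher and 5.61% lower). In the same 5 genes the 2 groups of arrays did not overlap, against 12.2% of all genes (4.06% higher and 8.14% lower). With the block, Tspan8 and Tspan13 were past the threshold in each of the 9 settings tried. Cd151 fell short of it without any one of the 3 pairs, with the scanner's or the deposited ratios, and with median centring. Tspan1 fell short with the scanner's and the deposited ratios, and Cd82 and Tspan1 fell short without pair 2. These counts describe genes chosen from this same comparison, so nothing is read from them. The median difference of the 9 was -0.07, beside 0.01 for all genes tested.

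**Figure D1:**
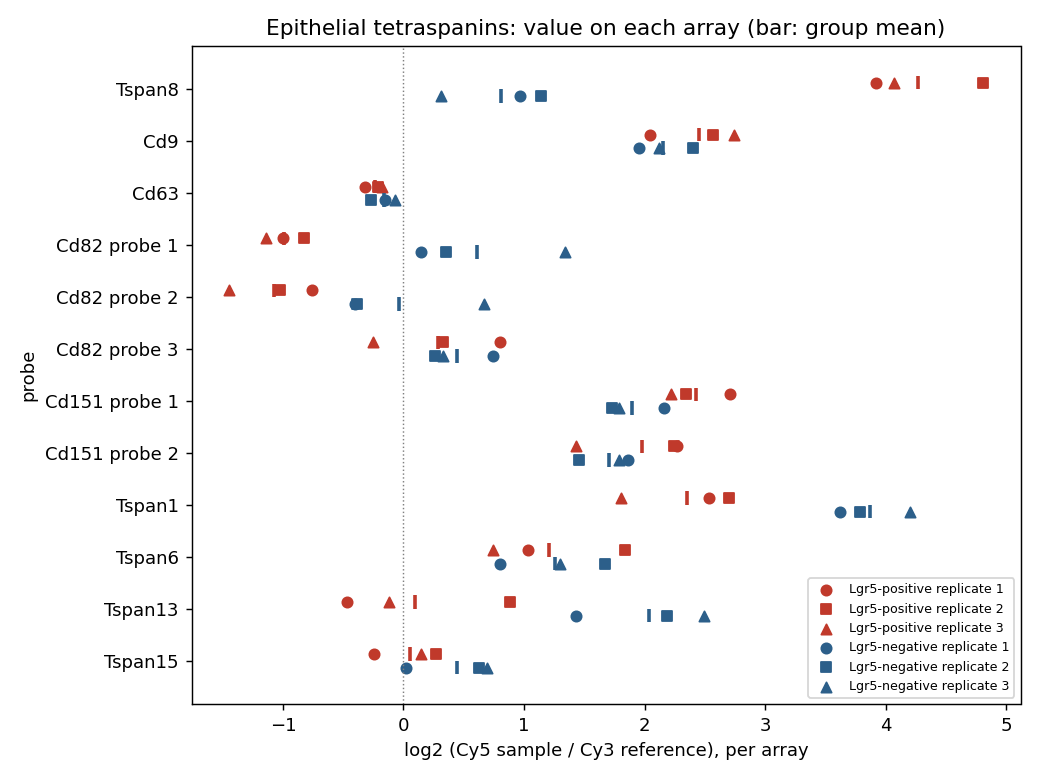
The log2 ratio of the sorted sample (Cy5) to the reference RNA (Cy3) is plotted on the x axis for each of the 12 probes on the y axis. Red marks are Lgr5-positive arrays, blue marks Lgr5-negative arrays, the shape gives the replicate number and short bars are group means of 3. The Tspan8 marks of the 2 groups lie far apart (means 4.26 and 0.81), while those of Cd63 lie within 0.25 of each other.

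Tspan8, also known as CO-029 in humans, is a glycosylated tetraspanin studied in gut, pancreas and mammary stem cells. It was read by a single probe, whose values were 3.92, 4.81 and 4.07 in replicates 1 to 3 of Lgr5-positive cells and 0.97, 1.14 and 0.31 in those of Lgr5-negative cells. The lowest positive array was thus well above the highest negative one. The difference was 3.46 (SE 0.32 with the group alone, 0.18 with the block), from 0.81 ± 0.44 to 4.26 ± 0.47 (SD, n = 3 each). It was 2.95, 3.67 and 3.75 in the pairs numbered 1 to 3, so no single pair carried it.

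The scanned intensities show on which side this difference lay. The Cy5 intensity of the Tspan8 spot was 5276, 17973 and 8368 on the Lgr5-positive arrays and 1301, 2240 and 1293 on the Lgr5-negative arrays. The Cy3 intensity, which comes from the same reference RNA throughout, stayed between 1077 and 1355. All 6 arrays were well above background in Cy5, with a local background of 66 to 80, so Lgr5-negative cells also gave a measurable Tspan8 signal. The difference between the groups was in the sorted samples and not in the reference channel, and it ran against the general trend that Cy5 signal was lower on the positive arrays.

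**Figure D2:**
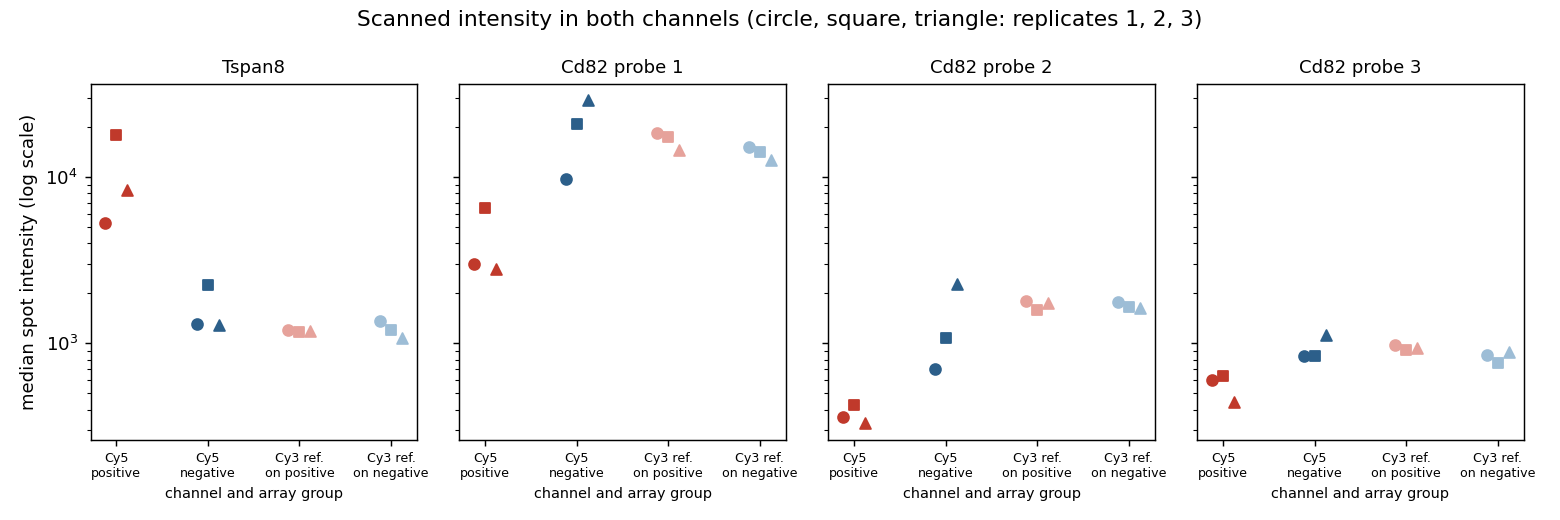
Median spot intensity on a log scale is plotted for Tspan8 and the 3 Cd82 probes, in the Cy5 channel (sorted sample, dark marks) and the Cy3 channel (reference RNA, pale marks), by array group and replicate. The Tspan8 Cy5 intensities run from 5276 to 17973 on positive arrays and from 1293 to 2240 on negative ones, while the pale marks of each probe stay nearly level.

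The promoter windows of Tspan8 and Tspan1 are printed because these genes differ in opposite directions, each from 1 probe and with 1 listed start site. Both come from the RefSeq table of assembly GRCm38.p6 and run 5′ to 3′ along the gene, from 250 bases before the annotated start to 30 bases after it. Tspan8 lies on the plus strand of chromosome 10 (chr10:115817034-115817313) and Tspan1 on the minus strand of chromosome 4 (chr4:116167569-116167848). Capitals mark matches to CTTTGA, the core that TCF/LEF factors of the Wnt pathway bind, in Tspan8, and to CACCTG, an E-box, in Tspan1.
Tspan8: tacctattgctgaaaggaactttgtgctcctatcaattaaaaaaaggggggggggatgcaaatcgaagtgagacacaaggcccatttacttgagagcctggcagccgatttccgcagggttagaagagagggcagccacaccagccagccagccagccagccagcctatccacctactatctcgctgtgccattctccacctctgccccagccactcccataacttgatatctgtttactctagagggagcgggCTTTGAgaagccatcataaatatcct
Tspan1: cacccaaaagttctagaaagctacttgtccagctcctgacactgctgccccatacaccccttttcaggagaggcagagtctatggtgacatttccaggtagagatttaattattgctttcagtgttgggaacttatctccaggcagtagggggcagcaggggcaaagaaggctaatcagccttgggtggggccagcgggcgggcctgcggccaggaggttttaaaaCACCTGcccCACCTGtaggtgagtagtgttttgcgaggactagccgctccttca

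The 9 genes have 13 promoter windows of 300 bases in that table, since Cd82 has 4 listed starts and Cd151 has 2. They were searched on both strands for 3 motifs of 6 bases, whose matches do not overlap in these windows. CTTTGA was found in 3 windows, those of Tspan8, Cd63 and 1 start of Cd82, and in 16.0% of all 32851 windows in the table. The Tspan8 match begins at position 5 after the start site, within the first exon. CACCTG was found in 6 windows of 5 genes (Cd9, Cd82, Cd151, Tspan1 and Tspan15) and in 20.2% of all windows, with Tspan1 holding it at positions -24 and -15. TATAAA was found in 0 of the 13 windows and in 13.6% of all. These are matches of letters and were not tested as binding sites.

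The windows also differ in CG dinucleotides, the sites of DNA methylation, of which the median window in the table holds 7. Tspan8 has 5, Tspan1 and Cd63 have 6 each and Tspan6 has 9. Cd9, Tspan13 and Tspan15 have 18, 26 and 29. Genes with few and genes with many CG dinucleotides occur among those with large differences (Tspan8, 5, and Tspan13, 26) and among those with small ones (Cd63, 6, and Cd9, 18).

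Tspan13, a small tetraspanin found in several glandular epithelia, had the largest negative difference of the 9. It read -0.47, 0.88 and -0.12 in Lgr5-positive replicates 1 to 3 and 1.43, 2.19 and 2.50 in Lgr5-negative ones. The groups did not overlap, although the highest positive and the lowest negative array lay within 0.6 of each other. The difference was -1.94 (SE 0.42 with the group alone, 0.24 with the block) and reached -1.90, -1.30 and -2.62 in the 3 pairs.

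Tspan1, which is found at the surface and in endosomes of secretory epithelia, read 2.54, 2.70 and 1.81 in positive cells and 3.62, 3.79 and 4.21 in negative cells. Its difference was -1.53 (SE 0.29; 0.26 with the block), with -1.09, -1.09 and -2.40 in the pairs. The third pair gave the widest gap, and without it the difference was -1.09. Its reference intensity was low, from 90 to 122 in Cy3, so the ratio rests on a dim denominator, while Cy5 ran from 314 to 558 in positive and from 1252 to 2738 in negative cells.

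Cd82, also named KAI1, is known as a suppressor of metastasis. Its 3 probes, all assigned to the same transcript, gave different answers. The brightest, A_55_P2048794, read -1.00, -0.83 and -1.14 in positive and 0.15, 0.36 and 1.34 in negative cells, a difference of -1.60 (SE 0.32; 0.26 with the block). The second, A_55_P2137927, read -0.76, -1.02 and -1.44 in positive and -0.40, -0.38 and 0.67 in negative cells, a difference of -1.04. On both probes the groups were apart, with the widest gap in the third pair (-2.48 and -2.11). The third and dimmest, A_55_P2048800, read 0.80, 0.33 and -0.25 in positive and 0.75, 0.26 and 0.33 in negative cells. There the groups overlapped and the difference was -0.16. The files used here do not hold the probe sequences, so which part of the transcript each probe reads is not known. The groups thus lay apart on 2 of the 3 Cd82 probes. On the second, pairs 1 and 2 gave only -0.36 and -0.64, so the third pair carried most of its difference.

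Cd151, the tetraspanin that binds laminin-binding integrins, was slightly higher in Lgr5-positive cells on its bright probe. That probe, A_51_P343252, read 2.71, 2.34 and 2.22 in positive and 2.16, 1.73 and 1.79 in negative cells. The groups lay apart by a narrow margin. The difference was 0.53 (SE 0.21; 0.12 with the block), or 1.45-fold, and was 0.55, 0.61 and 0.43 in the pairs. The dimmer probe, A_55_P1960216, gave 0.28, with overlapping groups and the opposite sign in the third pair (-0.36). In raw Cy5 intensity the bright probe was level, at 14729 to 25070 in positive and 18160 to 23548 in negative cells, so its difference appears only relative to the other transcripts of each array. With median centring in place of loess the difference of the bright probe shrank to 0.15.

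The remaining 4 genes were close between the groups. Cd9, a partner of integrins and of membrane-bound growth factors, read 2.05, 2.57 and 2.74 in positive and 1.95, 2.40 and 2.12 in negative cells, a difference of 0.30 (SE 0.24). Its groups overlapped, and the positive array was the higher in each pair by 0.10 to 0.62, but with median centring in place of loess the difference was -0.11. Cd63, a tetraspanin of late endosomes and lysosomes, had the narrowest spread, between -0.32 and -0.07 on all 6 arrays, and a difference of -0.07 (SE 0.16). Tspan6, which is X-linked, read 1.04, 1.84 and 0.74 in positive and 0.80, 1.67 and 1.30 in negative cells. Its difference of -0.05 (SE 0.35) changed sign between pairs (0.24, 0.17 and -0.56). Tspan15, a partner of the protease Adam10, was lower in each pair by a small amount (-0.27, -0.36 and -0.55), with overlapping groups and a difference of -0.39 (SE 0.25; 0.12 with the block).

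**Figure D3:**
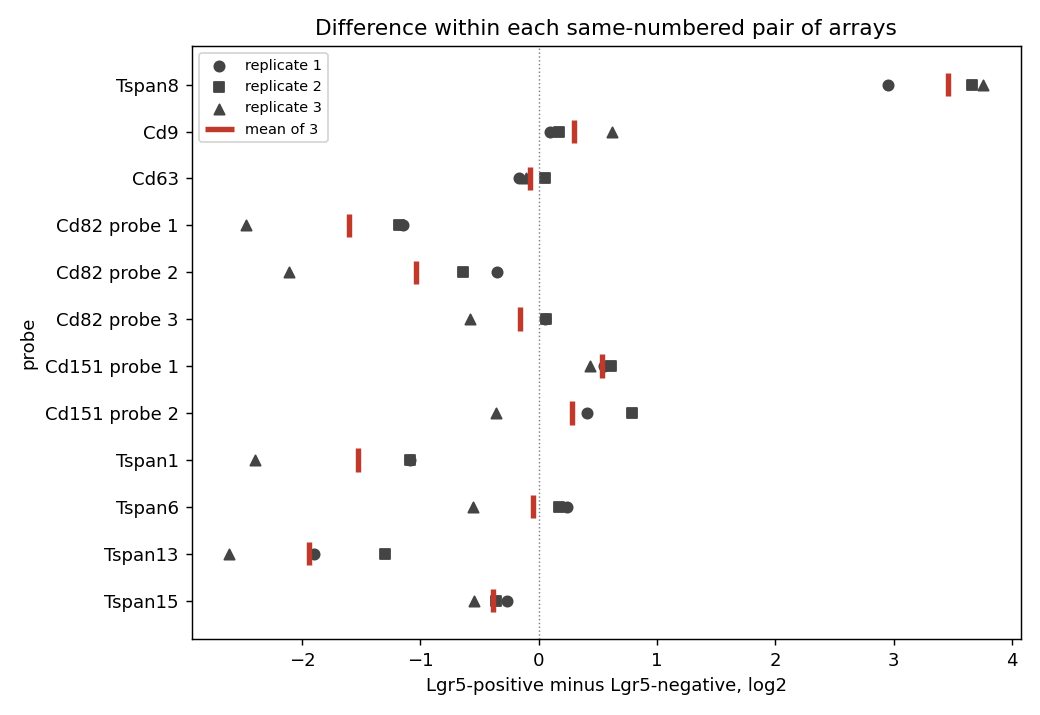
The difference between the Lgr5-positive and the Lgr5-negative array with the same replicate number is plotted in log2 units for each of the 12 probes, with the mean of the 3 pairs as a red bar. The 3 Tspan8 marks lie between 2.95 and 3.75, and the triangle of replicate 3 is the lowest mark for Tspan1, Tspan13 and all 3 Cd82 probes.

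By direction, Tspan8, Cd9 and Cd151 were higher in all 3 pairs on their brightest probe after loess (the mean difference of Cd9 turned negative with median centring), and Cd82, Tspan1, Tspan13 and Tspan15 were lower in all 3. Of all genes tested 22.5% were higher and 21.8% lower in all 3 pairs. The third pair gave the largest gap for Tspan13, Tspan1, Cd82 and Tspan15. Of the other tetraspanins and partners named below as lower with the block, Tspan7 (-3.02), Fzd4 (-2.46), Kit (-2.32) and Vcam1 (-1.95) shared this. The gap of Tspan12 was widest in pair 1 (-1.61), and those of Tspan33 (-0.88) and Adam10 (-1.34) were widest in pair 2. Among endothelial markers the third pair was also the widest for Egfl7 (-4.30), Plvap (-2.97), Tie1 (-1.76), Eng (-3.16), Cldn5 (-3.44), Cdh5 (-3.65), Emcn (-3.41), Pecam1 (-1.92) and Tek (-1.12). Esam was widest in pair 1 (-2.26, -0.53 and -1.79 in the 3 pairs), and Kdr was not lower. A widest gap in pair 3 was not confined to lower genes or endothelial markers. It also held for Tspan8 (3.75), Cd9 (0.62) and Lgr5 (1.70), while Cd151 was widest in pair 2 (0.61). Of basal markers that rose with the block, Oxtr (0.99), Krt17 (0.88) and Cnn1 (0.88) shared it. Of hormone-sensing luminal markers that fell with the block, Areg (-2.71), Ly6a (-2.55) and Cited1 (-1.35) shared it. Esr1 (-1.61) and Foxa1 (-1.25) were widest in pair 1.

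Levels were also compared between replicate numbers, a term of the fit apart from the Lgr5 groups. An F test of the replicate number in the blocked limma fit, added after the data had been seen, passed at an adjusted p under 0.05 in 37.4% of all genes tested and in 2 of the 9 genes, Tspan6 (adjusted p = 0.040) and Tspan15 (adjusted p = 0.0385). For Tspan6 the mean of the 2 arrays of a number was 0.92, 1.76 and 1.02 for numbers 1 to 3, so that number 2 was highest in both groups. For Tspan15 it was -0.11, 0.45 and 0.42. The pair mean of Tspan8 was 2.44, 2.97 and 2.19 (adjusted p = 0.061), and that of Cd63 was -0.23, -0.24 and -0.13 (adjusted p = 0.750). Among the other tetraspanins, Tspan18, Cd37, Tspan32 and Tspan3 had an adjusted p of 0.0053, 0.0075, 0.0081 and 0.0093 in the same test. They were picked for the lowest values after these were seen. Tspan5, Tspan12 and Tspan17 also passed this F test (adjusted p = 0.016, 0.019 and 0.045), and the rest of that list did not. The share of all genes that passed was 37.4%, so the list is not set apart by these.

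Against the reference RNA, whose cell lines are of many origins, Cd9 (group means 2.45 and 2.16), Cd151 (2.42 and 1.89), Tspan1 (2.35 and 3.87) and Tspan6 (1.21 and 1.26) were above 0 in both groups. Cd63 was slightly below 0 in both (-0.24 and -0.16). Tspan13 was near 0 in positive cells (0.10 ± 0.70) and at 2.04 ± 0.55 (SD, n = 3 each) in negative cells. Tspan8 was above 0 in both. Dyes were not swapped, so these levels against the reference include any dye effect of the probe, and they give no order between genes.

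The genes whose log2 ratios followed Tspan8 most closely over the 6 arrays were Adamts2, Crhr1, Pkd1, Epop and Ltbp3, out of 12860 genes well above background on every array. Pearson's correlations were 0.996, 0.982, 0.978, 0.976 and 0.975. With 6 arrays in 2 groups such values mainly restate a difference between the groups, so they are given without a p-value. The sizes were far smaller than that of Tspan8, at 1.15 for Adamts2, a protease that trims procollagen, 1.31 for Crhr1, a hormone receptor, 1.01 for Epop and 0.81 for Ltbp3, a binding protein of latent TGF-beta. Pkd1, the polycystic kidney disease gene, differed by only 0.17.

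The other members of the tetraspanin family form a list of 22 genes, of which 20 were tested; Tspan11 and Upk1b did not pass the filter. None of the 20 passed the limma test with the group alone (4 had an unadjusted p under 0.05), against 0.612% of all genes, and with the block 0 rose and 3 fell (Tspan7, Tspan12 and Tspan33), against 7.72%. In all 15 had negative and 5 positive values, with a median of -0.17 beside 0.01 for all genes. The groups of arrays did not overlap in 6 of the 20, against 12.2% of all genes.

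Tspan7, a tetraspanin best known from neurons, read 0.96, 2.30 and 1.21 in positive and 2.88, 3.87 and 4.23 in negative cells. It fell by 2.17 with the block (SE 0.26, adjusted p = 0.0052; adjusted p = 0.134 with the group alone), a larger gap than that of any of the 9 except Tspan8. Tspan12, which helps the receptor Fzd4 respond to the ligand norrin in vessels, read 1.11, 2.56 and 1.99 in positive and 2.72, 3.39 and 3.17 in negative cells. It fell by 1.21 with the block (SE 0.17, adjusted p = 0.0088; 0.365 with the group alone). Tspan33, a TspanC8 protein that carries Adam10 to the surface, fell by 0.76 with the block (SE 0.12, adjusted p = 0.014; 0.222 with the group alone). All 3 were lower in each pair; without pair 2 the call of Tspan33 was lost.

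The family holds subgroups with known partners. The 6 TspanC8 genes bind Adam10, and in addition to Tspan33 and Tspan15 they are Tspan14 (-0.37), Tspan10 (-0.14), Tspan5 (-0.10) and Tspan17 (0.03), none of which passed in either limma fit. Tetraspanins known mainly from leukocytes were at -0.22 for Cd37, -0.21 for Cd53 and 0.39 for Tspan32, and none passed in either fit. Cd81, the vesicle marker, read between -0.08 and 0.21 on all 6 arrays, a difference of -0.12. Tspan2 was at 0.60, but a dimmer probe for it gave -0.05, and Rom1, a photoreceptor tetraspanin, was at 0.52; neither passed in either fit.

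**Figure D4:**
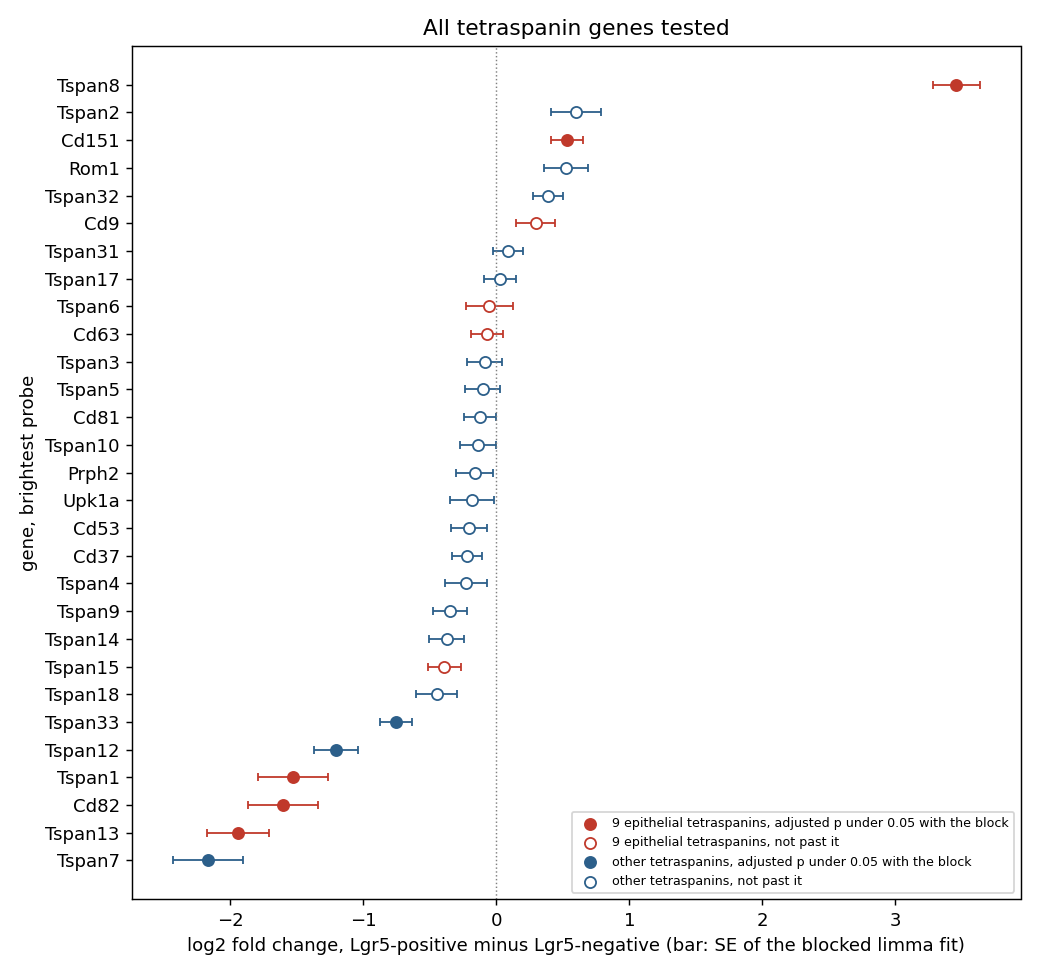
The log2 fold change between Lgr5-positive and Lgr5-negative cells is plotted for the 29 tetraspanin genes tested, in order of size, with the standard error of the blocked limma fit as a bar. Red marks are the 9 epithelial tetraspanins and blue marks the other 20. Filled marks passed the threshold with the block. The red genes were chosen from this same comparison, so nothing is read from their filling. Tspan8 stands alone at 3.46, the next value being 0.60 for Tspan2, and Tspan7 lies lowest at -2.17.

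Known partners of tetraspanins were examined as a list of 20 genes, all tested. None passed with the group alone (5 had an unadjusted p under 0.05 in limma), and with the block 0 rose and 4 fell (Fzd4, Kit, Vcam1 and Adam10), against 0.612% and 7.72% of all genes (5.61% lower). The list's median was -0.0021 beside 0.01 for all genes; 9 of the 20 values were positive, 11 with the scanner's ratios and 1 with median centring. Fzd4, the norrin and Wnt receptor that Tspan12 assists, was at -1.60 (SE 0.28 in the blocked fit, adjusted p = 0.019 by limma with the block and 0.501 with the group alone). Adam10, the protease that TspanC8 proteins carry, was at -1.01 (SE 0.17, adjusted p = 0.017 with the block and 0.647 with the group alone). Kit, the receptor of stem cell factor, was at -1.60, and Vcam1, an adhesion molecule whose lateral clusters hold Cd9 and Cd151, at -1.20 (-0.97 on a second probe), with an adjusted p of 0.040 each in the blocked limma fit. Kit is also counted below among the luminal progenitor markers that fell, so those counts share a gene. All 4 were lower in each pair, though in each of them the groups overlapped, with the negative array of replicate 1 the lowest of its group. With the block none of the 4 passed without pair 2, Kit and Vcam1 did not pass without pair 3, and Fzd4 and Vcam1 did not pass with the scanner's ratios. Without Lgr5-negative replicate 1 the count of partners with the group alone was 3.

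The integrin partners of Cd151 and Cd9 showed small differences in the same samples. Itga3 was at -0.00080 (SE 0.25), Itga6 at 0.06 (SE 0.55), Itgb1 at 0.16 (SE 0.34) and Itgb4 at -0.0074 (SE 0.23), and none passed in either limma fit. Igsf8 and Ptgfrn, the immunoglobulin-superfamily proteins that bind Cd9 and Cd81, were at 0.14 and 0.80, and Epcam, which associates with tetraspanins in epithelia, was at 0.31; none passed. Of 12 genes of vesicle formation and late endosomes 11 were tested, and 0 passed limma's test with the group alone or with the block (0 at an unadjusted p under 0.05 in either), against 0.612% and 7.72% of all genes. With the block and median centring 8 of the 11 passed as lower. Their median was -0.08, with Lamp1 at -0.27 and Sdcbp, the adaptor syntenin that binds Cd63, at -0.26.

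Markers of other cell types differed on the same arrays in limma's test. With the group alone 3 of 11 endothelial markers fell and 0 markers of the other lists passed (0 to 5 a list at an unadjusted p under 0.05), against 0.612% of all genes. With the block 8 of 11 endothelial, 5 of 7 hormone-sensing luminal, 3 of 6 pericyte, 4 of 8 fibroblast, 2 of 5 luminal progenitor and 1 of 6 leukocyte markers fell, against 5.61% of all genes. In that fit 3 of 10 basal, 1 fibroblast and 1 luminal progenitor marker rose, against 2.1%, and 0 of 3 luminal keratins passed. Of 11 endothelial markers 10 were lower in Lgr5-positive cells (median -2.15), and the mean log2 ratio of the list ran from 1.23 to 2.27 on positive and from 3.10 to 3.73 on negative arrays. Tie1 was not well above background on any positive array, and the other 10 were on at least 1. It thus passed the filter only through the negative arrays, so nothing is read from its call. Tie1 is counted both among the 3 and among the 8, and with the group alone the others were Egfl7 and Plvap. All 7 hormone-sensing luminal markers were lower too (median -1.09; list means 0.51 to 1.02 against 1.65 to 1.95), as were all 6 pericyte markers (median -0.72; list means -0.19 to 0.22 against 0.46 to 0.90). For fibroblasts 7 of 8 markers were lower, with list means of -1.06 to -0.87 against -0.73 to -0.33, and for luminal progenitors 4 of 5, with 1.36 to 1.92 against 1.57 to 2.57. Of the genes behind the gate, Cd24a averaged 2.42 in positive and 2.08 in negative cells against the reference. Itgb1, which encodes CD29, averaged -0.24 and -0.40 on its brightest probe, but 0.56 and 0.43 on a dimmer one. The list means of the basal markers were high in both groups (3.78 to 4.03 against 3.41 to 3.57). Trp63 among them was level with the reference, averaging 0.06 in positive and -0.0029 in negative cells. All 10 had a higher mean in positive cells (median 0.44), but by only 0.07 for Trp63 and 0.02 for Myh11. With median centring only 5 of the 10 were higher (median 0.05). The list means of the 3 luminal keratins (0.31 to 0.57 against 0.15 to 1.29) and of the 6 leukocyte markers (-0.42 to 0.04 against -0.36 to 0.16) overlapped between the groups. Of the 6 leukocyte markers 2 did not overlap, against 12.2% of all genes (8.14% lower). They were Cd74 (-1.04) and H2-Aa (-0.56), both lower in positive cells, and H2-Aa was well above background on only 1 positive array. The other direction was taken by 3 of the 6, Ptprc (0.29), Cd3e (0.23) and Csf1r (0.13). The part of these cell types in the lower values of Tspan13, Tspan1, Cd82, Tspan7, Tspan12, Tspan33 and the partner genes, and in the higher value of Tspan8, was not tested.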

How the data were processed

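Each array has 1 deposited scanner file, written by Agilent Feature Extraction (11.0 in the submitters' processing notes, 11.0.1.1 per the file headers). Per the file headers these hold median spot and background intensity in both channels, and a log10 ratio of processed signals. A deposited table of the series holds log2 ratios whose centring, read from the values, is on each probe's median; how it was made is not given in the sources used here. Median intensities were corrected by normexp (offset 50) and loess within arrays in limma 3.58.1 under R 4.3.3. Control spots and outlier-flagged spots had weight 0 and were left out. Probes were named by RefSeq transcript (GRCm38.p6 table; the arrays are annotated on another build), and 27509 of 55681 probes received a symbol. Kept were 34552 probes well above background in Cy5 on at least 3 arrays; the brightest probe stood for each of 15680 genes. Limma's lmFit and eBayes, two-sided, used the group alone, with the replicate number as a block as an alternative; p-values were Benjamini-Hochberg adjusted over all genes. Arrays with the same number correlated at 0.810, 0.819 and 0.675 in their deviations from the group means, and were paired by number on that ground. Same-numbered arrays also lay side by side on the slide. Positive replicates 1 to 3 were in columns 1, 3 and 1 and negative ones in columns 2, 4 and 2. A shared origin of the samples and a shared slide position cannot be told apart here. Odd or even column cannot be told apart from the group. All 6 arrays shared 1 slide and scan. The fits were tested on simulated data. Standard errors are those of limma. Precision is limited by the number of arrays.

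The members and gene lists were chosen with earlier results of these data known. Named genes were the 9 members, the list genes past the threshold in either fit (or else the 2 with the lowest p), and the 5 genes most correlated with Tspan8; further list genes were added for their known partners after their values were seen.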

Additional observations from a re-analysis of the deposited data

How the results depend on the processing

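The difference of Tspan8 was between 2.96 and 3.57 when all 6 arrays were used, the low end under median centring in place of loess (2.96, with or without the block), which moved the median of all genes to -0.29. Cd151, Cd63, Cd82 and Cd9 moved there to 0.15, -0.46, -2.15 and -0.11, so the sign of Cd9 turned. Leaving out arrays or pairs kept Tspan8 between 3.19 and 3.71 and turned the sign of Tspan6 (-0.37 to 0.20). The count of genes past the threshold was 96; it was 9 under median centring, 44 when each array had to be well above background, 312 with array weights, and 1210 with the replicate block (738 with the scanner's ratios, 5790 with median centring). It was 0 to 371 without single arrays or pairs, and 0 without Lgr5-positive replicate 1 or 3, or without pair 2 or 3 (667 to 1103 at an unadjusted p under 0.05). In the blocked fit it was 1397, 326 and 854 without pair 1, 2 and 3. Of the blocked calls 72.7% were lower, and 97.8% with median centring.

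Of the other tetraspanins 3 passed with the replicate block, 3 with the scanner's ratios and 14 with median centring; without pair 1, 2 and 3 there were 4, 2 and 3. Of the partners 4 passed with the block, 2 with the scanner's ratios and 6 with median centring, and 5, 0 and 2 without pair 1, 2 and 3. Vesicle genes numbered 8 with the block and median centring. Without the block, leaving out arrays or pairs gave 0 to 1 of the other tetraspanins and 0 to 3 of the partners (3 without Lgr5-negative replicate 1, 1 without pair 1). Among the 9 tetraspanins, with the block Tspan8 and Tspan13 passed in each of the 9 settings run; Cd82 passed in 8, failing without pair 2, Tspan1 failed there and with the scanner's and the deposited ratios, and Cd151 passed in 3. Median centring added Cd63, Tspan6 and Tspan15 as lower. The cause was not tested. The 9 genes were chosen from this same comparison, so nothing is read from how often they passed. The slide or scan as a block was not run, since all arrays share 1 slide and scan. The blocked settings that also change another choice were added after the data had been seen.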
